A study of Mus musculus with 6 samples.

Results

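IL-15 and the common gamma chain genes were examined in starch-elicited peritoneal macrophages (PEMs) with and without *Tim-4*. The 6 genes *Il15*, *Il15ra*, *Il7*, *Il7r*, *Il2rg* and *Il21r* were chosen by name from the 15415 genes listed in the expression table, because *Il15* was already known to be higher in the knockout libraries. They were thus selected on the same contrast that is described here, and their values are given as a description, with no p-value. Whether a member passed in the fit over all genes is given beside the share or number of all genes that passed. RNA was sequenced in 3 libraries of the genotype LysM-Cre; *Tim-4* fl/fl (knockout libraries 1 to 3) and in 3 libraries of the genotype *Tim-4* fl/fl, without Cre (control libraries 1 to 3). Both groups carried loxP sites around a region from intron 1 to intron 3 of *Tim-4*. In the knockout, Cre made from the lysozyme gene *Lyz2* deletes this region in myeloid cells, and other cells in the peritoneum keep it. The mice were C57BL/6J males of 6 to 8 weeks, and PEMs were collected 3 days after a starch injection. By the labels, the cells of all 6 libraries had LPS as treatment. Whether each library is 1 mouse or a pool is not stated. The libraries were grouped by title, since a genotype entry in the labels has the groups swapped.

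IL-15, IL-7, IL-2, IL-4, IL-9 and IL-21 are cytokines that signal through receptors sharing the common gamma chain, the product of *Il2rg*. The chain binds the kinase JAK3, and each receptor adds a chain of its own, such as IL-7Rα or IL-21R, which binds JAK1. JAK1 and JAK3 then activate STAT proteins, mainly STAT5 for IL-15 and IL-7 and STAT3 for IL-21. IL-15 is unusual in that macrophages and dendritic cells hold it on their surface bound to IL-15Rα, the product of *Il15ra*, and present it to NK cells and memory CD8 T cells, which carry IL-2Rβ and the gamma chain. Macrophages make *Il15* in response to LPS and type I interferon, and IRF1 is a known activator of the gene. IL-7 is mostly made by stromal cells, and IL-21R is best known on lymphocytes, B cells among them.

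The ligand *Il15* (Entrez 16168) and its presenting receptor *Il15ra* (Entrez 16169) both had clearly higher levels in the knockout libraries, by ratios of 3.29 and 3.58. *Il15* was at 16.3, 17.0 and 10.8 FPKM (reads scaled by gene length and by the reads of the library) in control libraries 1 to 3, and at 51.5, 59.0 and 34.4 FPKM in knockout libraries 1 to 3. All knockout libraries were above all control libraries, and knockout library 3 and control library 3 were the lowest of their groups. The means were 14.7 ± 3.40 and 48.3 ± 12.6 FPKM (SD, n = 3), a ratio of 3.29, and the difference on the log2(FPKM + 1) scale was 1.64 (standard error 0.25 from limma). These values rested on 1098 to 1863 reads in the control libraries and 3961 to 6996 in the knockout libraries. *Il15* was above 80.0% of the listed genes in the control libraries and above 92.1% in the knockout libraries.

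*Il15ra* was at 8.898, 6.496 and 5.996 FPKM in control libraries 1 to 3 and at 27.5, 29.2 and 19.8 FPKM in knockout libraries 1 to 3. Again the groups did not overlap and knockout library 3 was the lowest of its group. The means were 7.13 ± 1.55 and 25.5 ± 4.99 FPKM (SD, n = 3), a ratio of 3.58, with a log2 difference of 1.70 (standard error 0.20). Ligand and receptor therefore differed between the groups by like amounts, and *Il15ra* per *Il15* FPKM was 0.382 to 0.555 in the control libraries and 0.495 to 0.576 in the knockout libraries. These ranges overlapped.

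**Figure D1:**
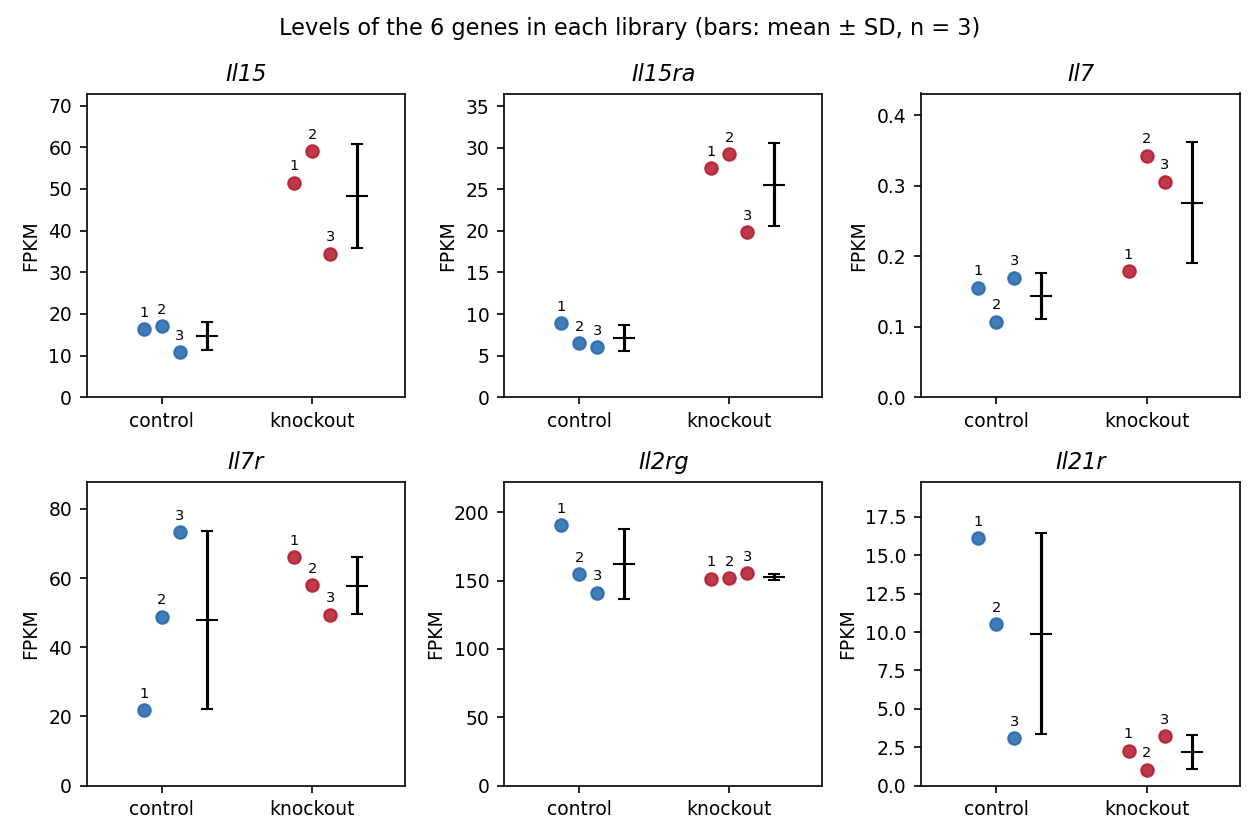
FPKM of each of the 6 genes in control (blue) and knockout (red) libraries, with the library number above each point and the mean ± SD (n = 3) as a black bar. The groups are apart for *Il15*, *Il15ra* and, at a level under 0.4 FPKM, *Il7*, and they overlap for *Il7r*, *Il2rg* and *Il21r*.

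Among the 5 members with a mean of at least 1 FPKM in one group, *Il15* and *Il15ra* passed an adjusted p of 0.05 in the direction of the knockout and none passed in the other direction. Over all 9030 genes tested, 2.57% passed as higher and 4.74% as lower. The balance of these shares depended on the scaling. After rescaling the libraries by the median of ratios, 342 genes were higher and 320 lower, in place of 232 and 428. In the same 2 genes all knockout libraries were above all control libraries, as in 11.1% of the genes tested, and in none of the 5 were they all below, as in 23.0%. Since these genes were chosen with this contrast known, nothing is read from these counts. The calls also changed with single libraries, since neither gene passed without knockout library 1 or without control library 2, and *Il15* did not pass without knockout library 2 either. *Il21r* passed as lower without control library 3, and without control library 3 and knockout library 2 together. *Il7* was below the minimum and was not tested. The median log2 difference of all genes tested was -0.11, and it was 0.02 after rescaling the libraries by the median of ratios, which put *Il15* at 1.78 and *Il15ra* at 1.84.

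The libraries were not all alike in *Timd4* and *Lyz2*. *Timd4*, the gene of Tim-4, had 19.5, 12.05 and 1.19 FPKM in control libraries 1 to 3 and 0.333, 0.394 and 0.246 FPKM in knockout libraries 1 to 3, so that control library 3 was near the knockout level. *Lyz2*, from which Cre is made, had 7090, 7171 and 8482 FPKM in the control libraries and 41.4, 4656 and 106 FPKM in the knockout libraries. Knockout library 2 was thus far above the other knockout libraries in *Lyz2*, though below all controls. Its *Timd4* was near theirs. *Il15* was highest in knockout library 2 and lowest in control library 3. With both of these libraries left out, an alternative added once the data had been seen, the log2 difference was 1.29 (standard error 0.22) for *Il15* and 1.50 (standard error 0.23) for *Il15ra*. Across the 6 fits that left out 1 library, it lay between 1.45 and 1.86 for *Il15* and between 1.60 and 1.87 for *Il15ra*. Over all genes the number past the threshold ranged far more widely in these fits, from 8 without control library 2 and 30 without knockout library 1 to 1333 without control library 3, against 660 with all libraries.

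Genes whose levels followed *Il15* most closely over the 6 libraries were sought among 5460 genes with a mean of at least 5 FPKM. Likeness was the root mean square difference between the log2(FPKM + 1) values of 2 genes, each centred on its own mean. *Cd83*, a surface protein of activated dendritic cells and macrophages, was nearest to *Il15* at 0.165, and *Il15ra* came next at 0.178. *Cd83* was at 18.0, 17.3 and 12.4 FPKM in control libraries 1 to 3 and at 46.8, 58.8 and 27.6 FPKM in knockout libraries 1 to 3. Like *Il15*, it was highest in knockout library 2 and lowest in control library 3. The next were *Arid5a*, which codes for an RNA-binding protein that stabilises *Il6* mRNA (0.231), *Glipr2* (0.236) and *Ccl2*, the monocyte chemoattractant (0.250). For *Il15ra* the nearest gene was *Il15* itself, ahead of *Apoe* at 0.186. The other members were far from *Il15*, with *Il2rg* at 0.902, *Il7r* at 0.909 and *Il21r* at 1.76.

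**Figure D2:**
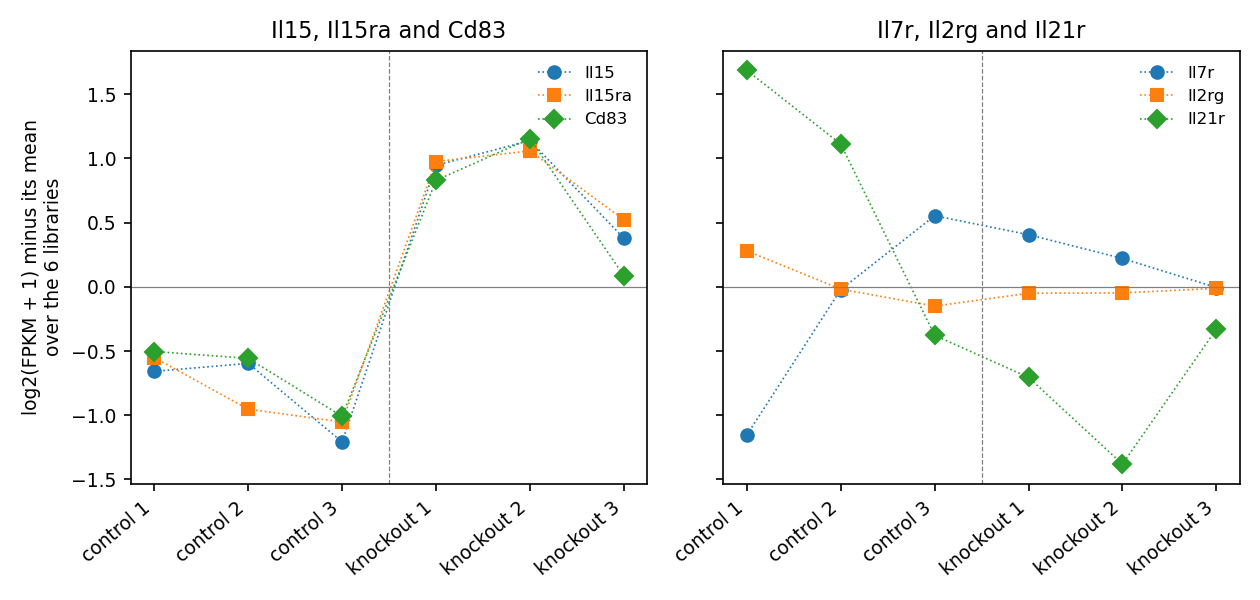
Log2(FPKM + 1) of each gene in each library minus the mean of that gene over the 6 libraries. The dotted lines only join the points of 1 gene. *Il15*, *Il15ra* and *Cd83* (left) are below their means in all control libraries and above them in all knockout libraries, whereas *Il7r*, *Il2rg* and *Il21r* (right) each follow another pattern.

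The shared chain *Il2rg* (Entrez 16186) was the most abundant of the 6 genes and differed little between the groups. It was at 190, 155 and 141 FPKM in control libraries 1 to 3 and at 151, 152 and 155 FPKM in knockout libraries 1 to 3. The knockout libraries lay within the range of the control libraries. The means were 162 ± 25.5 and 153 ± 2.28 FPKM (SD, n = 3), and the log2 difference was -0.07 (standard error 0.14), which turned to 0.07 after rescaling by the median of ratios, to 0.07 with voom on the recovered reads and to 0.05 without control library 1. *Il2rg* per *Il15ra* FPKM was 21.4 to 23.8 in the control libraries and 5.19 to 7.83 in the knockout libraries, so the gamma chain exceeded the presenting receptor in every library. *Il2rb*, the chain that IL-15 needs together with the gamma chain to signal, was at 1.57, 0.590 and 0.250 FPKM in control libraries 1 to 3 and at 0.226, 0.0942 and 0.221 FPKM in knockout libraries 1 to 3. *Il2rg* per *Il2rb* FPKM was 122 to 564 in the control libraries and 670 to 1610 in the knockout libraries.

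*Il7r* (Entrez 16197), the alpha chain of the receptors for IL-7 and TSLP, varied more within the control group than between the groups. It was at 21.8, 48.9 and 73.3 FPKM in control libraries 1 to 3 and at 66.1, 58.0 and 49.4 FPKM in knockout libraries 1 to 3. The highest and the lowest of the 6 libraries were both controls. The means were 48.0 ± 25.8 and 57.8 ± 8.32 FPKM (SD, n = 3), with a log2 difference of 0.41 (standard error 0.40). Without control library 1 the difference was -0.06 (standard error 0.22), and without control library 3 it was 0.79 (standard error 0.32). Summed T cell markers, 7 of 10 of which were listed, were at 4.07, 2.93 and 1.27 FPKM in control libraries 1 to 3 and at 1.59, 1.92 and 1.08 FPKM in knockout libraries 1 to 3. The part of T cells in the level of *Il7r* was not tested. *Rsrp1* (0.128) and *Mllt6* (0.158) were the genes with levels most like those of *Il7r*.

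The partner chain of *Il7r* in the TSLP receptor, *Crlf2*, was at 22.4 to 34.3 FPKM in the control libraries and 29.1 to 33.2 FPKM in the knockout libraries, a log2 difference of 0.14 (standard error 0.17, limma adjusted p = 0.618). *Tslp* itself was between 0.112 and 0.612 FPKM in the 6 libraries.

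The ligand *Il7* (Entrez 16196) was near the limit of detection. It was at 0.155, 0.107 and 0.169 FPKM in control libraries 1 to 3, from 22, 15 and 22 reads, and at 0.179, 0.343 and 0.306 FPKM in knockout libraries 1 to 3, from 27, 52 and 45 reads. All knockout libraries were above all control libraries, knockout library 1 only narrowly. The means were 0.144 ± 0.0326 and 0.276 ± 0.0861 FPKM (SD, n = 3), a ratio of 1.92. Listed markers of mesothelial cells and fibroblasts (10 of 10, none at an adjusted p under 0.05 among the 5 tested) summed to 2.16, 6.36 and 13.3 FPKM in control libraries 1 to 3 and to 12.9, 36.6 and 16.1 FPKM in knockout libraries 1 to 3. Both *Il7* and this sum were highest in knockout library 2, and the part of these cells in the level of *Il7* was not tested. In RNA from a mixture of cells, fewer cells of a type and less RNA per cell cannot be told apart.

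*Il21r* (Entrez 60504) was the member with the largest difference towards lower values in the knockout libraries, but 1 control library lay within the knockout range. It was at 16.1, 10.5 and 3.10 FPKM in control libraries 1 to 3 and at 2.26, 1.04 and 3.23 FPKM in knockout libraries 1 to 3. Control libraries 1 and 2 were above all knockout libraries, while control library 3 was below knockout library 3. The means were 9.89 ± 6.52 and 2.18 ± 1.10 FPKM (SD, n = 3), with a log2 difference of -1.61 (standard error 0.52). It lay between -2.20 and -1.17 in the fits that left out 1 library. The largest of these, -2.20 (standard error 0.32), came from leaving out control library 3, the control within the knockout range. *Slc7a2*, a transporter of arginine and other cationic amino acids, had the levels most like those of *Il21r* (0.235), at 881, 639 and 166 FPKM in control libraries 1 to 3 and at 158, 129 and 170 FPKM in knockout libraries 1 to 3.

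B cell markers moved with *Il21r*. The 8 listed of 9 summed to 135, 93.6 and 36.3 FPKM in control libraries 1 to 3 and to 12.3, 11.3 and 11.9 FPKM in knockout libraries 1 to 3. Among the 8, 7 fell past the threshold, such as *Cd79a*, a chain of the B cell receptor complex, at 57.6, 33.7 and 15.3 FPKM in the control libraries and 2.83, 1.54 and 2.63 FPKM in the knockout libraries (limma adjusted p = 0.0117). *Cd22* did not (adjusted p = 0.979). In control library 3 *Il21r* lay within the knockout range, whereas the sum of the B cell markers lay above it. The part of B cells in the level of *Il21r* was not tested.

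**Figure D3:**
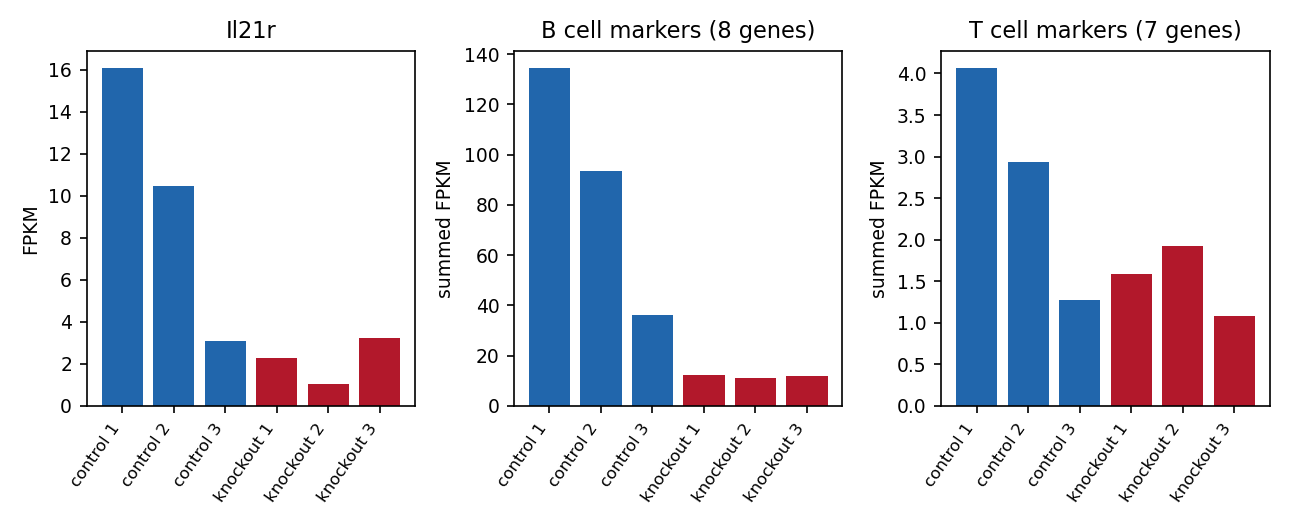
*Il21r* (FPKM), the summed FPKM of 8 B cell markers and that of 7 T cell markers in each library, control in blue and knockout in red. Among the controls, *Il21r* and both sums are highest in library 1 and lowest in library 3, and in control library 3 the B cell sum of 36.3 stays above the knockout libraries whereas *Il21r* does not.

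In the control group the order of mean levels, which FPKM allows between genes, was *Il2rg*, *Il7r*, *Il15*, *Il21r*, *Il15ra* and *Il7*. *Il15* overlapped with *Il21r* there, and *Il21r* overlapped with *Il15ra*. In the knockout group the order was *Il2rg*, *Il7r*, *Il15*, *Il15ra*, *Il21r* and *Il7*, and only *Il7r* and *Il15* overlapped among neighbours. *Il21r* was above 74.3% of the listed genes in the control libraries and above 53.9% in the knockout libraries, while *Il15ra* was above 69.1% and 86.8%.

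Markers of the cells that respond to presented IL-15 were low. The 7 listed of 11 markers of NK and CD8 T cells summed to 0.0922 to 2.56 FPKM in the control libraries and 0.151 to 0.417 FPKM in the knockout libraries. The highest of them was *Gzmb*, a granzyme of cytotoxic cells, with a mean of 1.05 ± 0.971 FPKM in the control libraries and 0.122 ± 0.0869 FPKM in the knockout libraries (SD, n = 3), and the groups overlapped (limma adjusted p = 0.212). The macrophage markers *Adgre1*, *Itgam*, *Csf1r*, *Cd68*, *Mertk* and *Spi1* were all listed, summed to 1825 to 2451 FPKM in the control libraries and 2468 to 2701 FPKM in the knockout libraries, and none passed the threshold. They did not go one way. *Cd68*, the most abundant of them, was at 1091 ± 282 and 1642 ± 61.1 FPKM (SD, n = 3) in control and knockout libraries with no overlap, while *Csf1r* was at 168 ± 14.9 and 105 ± 33.3 FPKM, lower in all knockout libraries. *Adgre1* and *Itgam* had lower means in the knockout libraries, with overlap. Among dendritic cell markers, *Ccr7* was at 8.77 ± 1.55 FPKM in the control libraries and 3.80 ± 1.81 FPKM in the knockout libraries (SD, n = 3), and *Flt3*, *Zbtb46*, *Xcr1*, *Clec9a* and *Cd209a* had means of at most 0.234 FPKM in both groups. Of 8 mast cell markers, 5 of the 6 tested fell, and of 8 neutrophil markers 2 of the 5 tested fell. None of the 6 macrophage markers was higher past the threshold, nor was *Ccr7*, the only 1 of the dendritic cell markers that could be tested. The part of the mix of cells in the level of *Il15* was not tested.

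Other genes of the pathway were taken from 4 lists that were written with earlier results of these data known. They held 39 genes, of which 36 were listed and 30 could be tested. Of these, 3 rose and 3 fell, beside the 2.57% and 4.74% of all genes tested that did so in the main fit. Over all genes, the excess of lower ones was absent after rescaling by the median of ratios (342 higher, 320 lower). Their median log2 difference was 0.13, against -0.11 over all genes tested. *Il2*, *Il9* and *Il21* were not among the listed genes.

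Among the other ligands and receptors, 4 of 8 listed genes could be tested and 1 fell. *Il2ra*, the alpha chain of the IL-2 receptor, was at 3.69, 3.04 and 2.15 FPKM in control libraries 1 to 3 and at 1.36, 0.567 and 0.728 FPKM in knockout libraries 1 to 3. The groups did not overlap, and the log2 difference was -1.07 (standard error 0.21, limma adjusted p = 0.0306). *Il13ra1*, the partner of IL-4Rα in macrophages, was at 5.50 to 8.77 FPKM in the control libraries and 9.88 to 20.3 FPKM in the knockout libraries (adjusted p = 0.0693). Its limma adjusted p was 0.0306 without knockout library 3 and 0.0199 when paired, with the replicate number as a block. It was 0.246 without knockout library 2 and 0.22 without knockout library 1. *Il4ra* was at 22.2 ± 2.67 and 17.2 ± 2.91 FPKM (SD, n = 3) in control and knockout libraries (adjusted p = 0.204). *Il9r* was at 0.438, 0.338 and 0.261 FPKM in control libraries 1 to 3 and at 0.0665, 0.0189 and 0.0228 FPKM in knockout libraries 1 to 3, below the minimum for the test, and it passed as lower in the fit without a filter on low values (adjusted p = 0.0299). *Il4* was at most at 0.203 FPKM.

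None of the 6 kinases and transcription factors passed the threshold. *Jak1* was at 61.7 ± 3.64 FPKM in the control libraries and 64.1 ± 0.846 FPKM in the knockout libraries, and *Jak3* at 2.13 ± 0.538 and 2.27 ± 0.235 FPKM (SD, n = 3). *Stat5a* had the largest difference of this list, with 12.04, 13.6 and 22.8 FPKM in control libraries 1 to 3 and 38.8, 31.2 and 21.1 FPKM in knockout libraries 1 to 3. Control library 3 and knockout library 3 overlapped, and the log2 difference was 0.88 (standard error 0.29, limma adjusted p = 0.109). The adjusted p from limma was 0.0263 without control library 3, but 0.314 without knockout library 1 and also 0.314 without knockout library 2. *Stat5b*, its close relative, was at 6.45 ± 1.01 and 6.83 ± 1.18 FPKM (SD, n = 3).

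Among feedback and survival genes of the pathway, 1 rose and 2 fell of the 8 tested. *Pim1*, a kinase induced by STAT proteins, was at 169, 169 and 193 FPKM in control libraries 1 to 3 and at 307, 305 and 266 FPKM in knockout libraries 1 to 3, with a log2 difference of 0.72 (standard error 0.13, limma adjusted p = 0.0243). Its relative *Pim2* went the other way, from 4.17, 2.87 and 1.95 FPKM to 1.08, 1.08 and 1.03 FPKM (log2 difference -0.92, standard error 0.20, adjusted p = 0.0425). So did *Bcl2*, a survival protein, from 1.21, 1.60 and 0.745 FPKM to 0.188, 0.206 and 0.296 FPKM (log2 difference -0.81, standard error 0.17, adjusted p = 0.0337). *Pim2*, *Bcl2* and *Il2ra*, the genes that fell, are also expressed in lymphocytes. All knockout libraries were below all control libraries in 7 of 8 listed B cell markers and 7 of 8 mast cell markers, as in 23.0% of all genes tested. The part of B cells, mast cells or other cells in the levels of *Pim2*, *Bcl2* and *Il2ra* was not tested. *Socs3*, a feedback inhibitor of STAT3, was at 178, 122 and 45.2 FPKM in the control libraries and 326, 324 and 163 FPKM in the knockout libraries (adjusted p = 0.139). For *Socs3* the limma adjusted p was 0.0219 with the replicate block and 0.385 without knockout library 2. *Bcl2l1* and *Socs1* had means above the control by 2.03 and 1.89 times without passing (adjusted p = 0.0887 and 0.207). For *Bcl2l1* the limma adjusted p was 0.0268 without control library 3 and 0.303 without knockout library 2. *Socs2* was at most at 0.293 FPKM and was not tested, and *Mcl1* was at 92.8 ± 19.5 and 90.1 ± 1.60 FPKM (SD, n = 3).

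Among 12 tested genes known to act upstream of *Il15*, *Irf1* and *Stat2* rose and none fell, beside 2.57% and 4.74% of all genes tested. *Irf1*, a transcription factor that activates *Il15*, was at 75.3, 65.6 and 76.7 FPKM in control libraries 1 to 3 and at 187, 180 and 162 FPKM in knockout libraries 1 to 3. The groups were far apart compared with their spread, and the log2 difference was 1.27 (standard error 0.13, limma adjusted p = 0.00651). *Stat2*, part of the complex that type I interferon activates, was at 51.2, 36.5 and 23.3 FPKM in the control libraries and 98.8, 84.6 and 75.6 FPKM in the knockout libraries (log2 difference 1.26, standard error 0.27, adjusted p = 0.0383). *Irf9*, which binds STAT2 in that complex, was at 31.7 ± 3.16 and 35.6 ± 1.61 FPKM (SD, n = 3; adjusted p = 0.426). *Ifnb1*, the gene of interferon beta, was at 0.197, 0.200 and 0.215 FPKM in control libraries 1 to 3, from 6 reads each, and at 0.587, 0.831 and 1.14 FPKM in knockout libraries 1 to 3, below the minimum for the test, and passed as higher in the fit without a filter on low values (adjusted p = 0.0464). *Tlr4*, the LPS receptor, was at 12.2 ± 3.97 and 6.92 ± 2.34 FPKM (SD, n = 3; adjusted p = 0.149). The NF-κB subunits *Nfkb1* and *Rela* had log2 differences of 0.13 and 0.14 (adjusted p = 0.587 and 0.631). The part of any of these genes in the level of *Il15* was not tested.

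**Figure D4:**
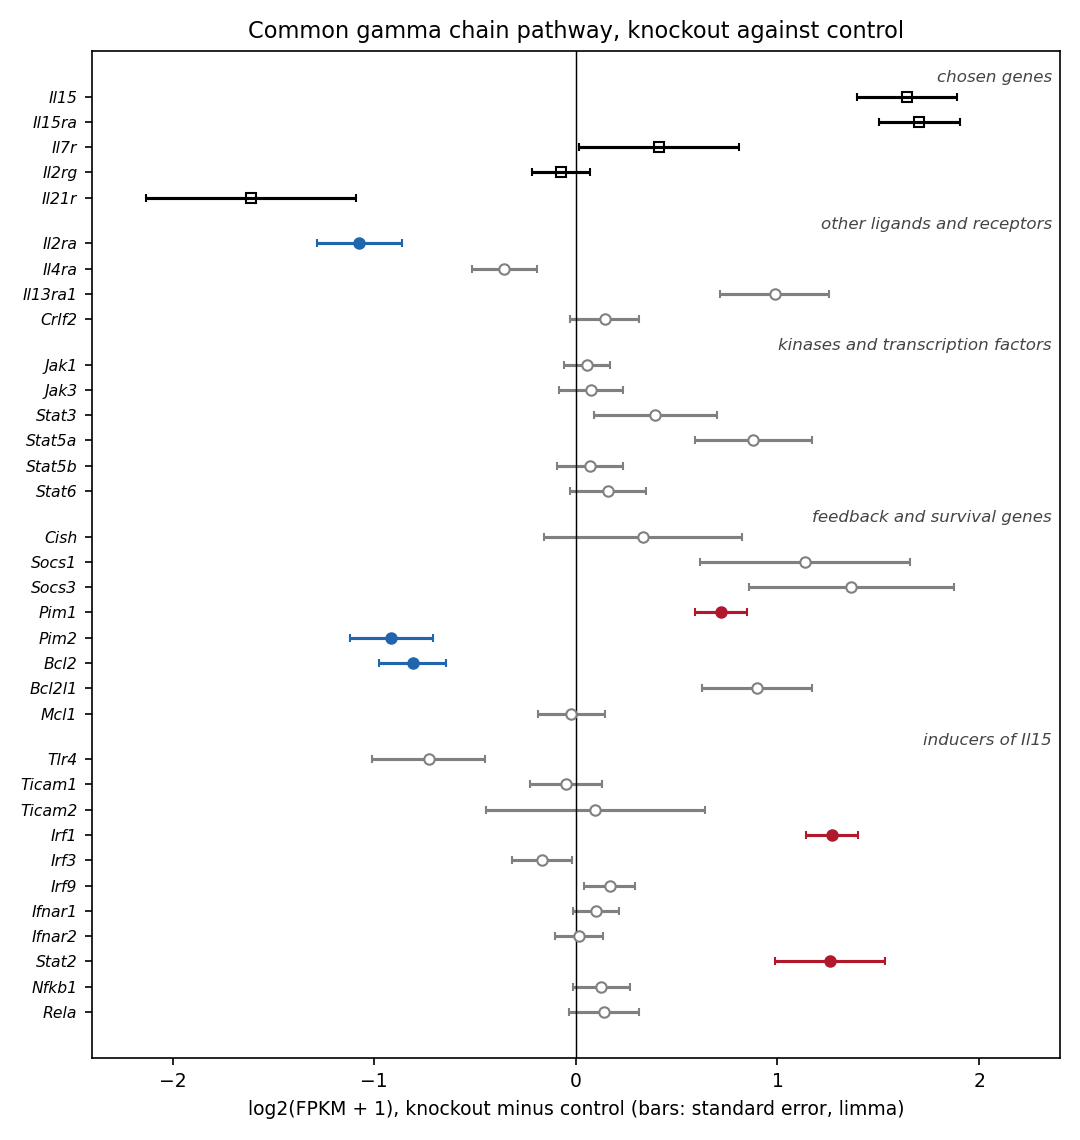
Difference in log2(FPKM + 1) between knockout and control for the 5 members and the other pathway genes that could be tested, 1 of which is not drawn, with standard errors from limma. Red points rose and blue points fell at an adjusted p under 0.05, open circles did not pass, and black squares are the genes chosen on this contrast, shown without a call.

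All 6 pathway calls depended on the processing or on single libraries. *Irf1*, *Pim1* and *Bcl2* also passed after rescaling by the median of ratios and with voom on the recovered reads, while *Stat2*, *Il2ra* and *Pim2* did not, with adjusted p-values from limma after rescaling of 0.0523, 0.0548 and 0.0778. Without knockout library 1 none of the 6 passed, and without control library 2 none of the 5 that could still be tested did (*Bcl2* was then below the minimum). Without knockout library 2 only *Irf1* passed, and without knockout library 3 only *Irf1* and *Pim1*. *Bcl2* was also lost without control library 1 (limma adjusted p = 0.0534). In the fit without a filter on low values, *Il2ra*, *Pim2* and *Stat2* were lost (adjusted p = 0.0605, 0.0771 and 0.0695). Without both knockout library 2 and control library 3, *Pim1* and *Stat2* were lost (adjusted p = 0.0554 and 0.0681), and *Irf1*, *Bcl2*, *Il2ra* and *Pim2* passed. In the paired fit (replicate block), 8 passed in place of 6, and over all genes 352 rose and 503 fell in place of 232 and 428.

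Promoters of 4 of the 6 genes could be read from RefSeq on GRCm38.p6, as 5 windows from 250 bases before to 50 bases after a start of transcription. *Il15* and *Il7* were not matched. The windows were searched on both strands for GAAANNGAA, the paired element that interferon regulatory factors such as IRF1 bind, for TTCNNNGAA, the element of STAT proteins, and for the NF-κB element. The 3 motifs were picked after the expression values were known. They were found in 8.56%, 8.30% and 8.46% of the 32851 mouse promoters of the same length. Both windows of *Il15ra* held GAAANNGAA, and the window of *Il7r* held TTCNNNGAA, which reads the same on both strands. They are printed as the matches found in these genes, with the motif in capitals and 10 bases on each side, 5′ to 3′ along the gene.
Il15ra, first start, motif on the opposite strand, chr2:11705134-11705162, plus strand: tcaccccttcTTCCATTTCaaacacttgg
Il15ra, second start, motif on the gene's strand, chr2:11705732-11705760, plus strand: aagcaaaagcGAAAGCGAAtactccttag
Il7r, chr15:9530000-9530028, minus strand: gttcaggagcTTCAGGGAAtaccaagatg
The first *Il15ra* motif begins at -149 from its start and the second at 31, inside the transcribed part. The *Il7r* motif begins at -142 from its start. None of the 3 motifs was found in the windows of *Il2rg* and *Il21r*. Such a match is a run of letters and no measure of binding.

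**Figure D5:**
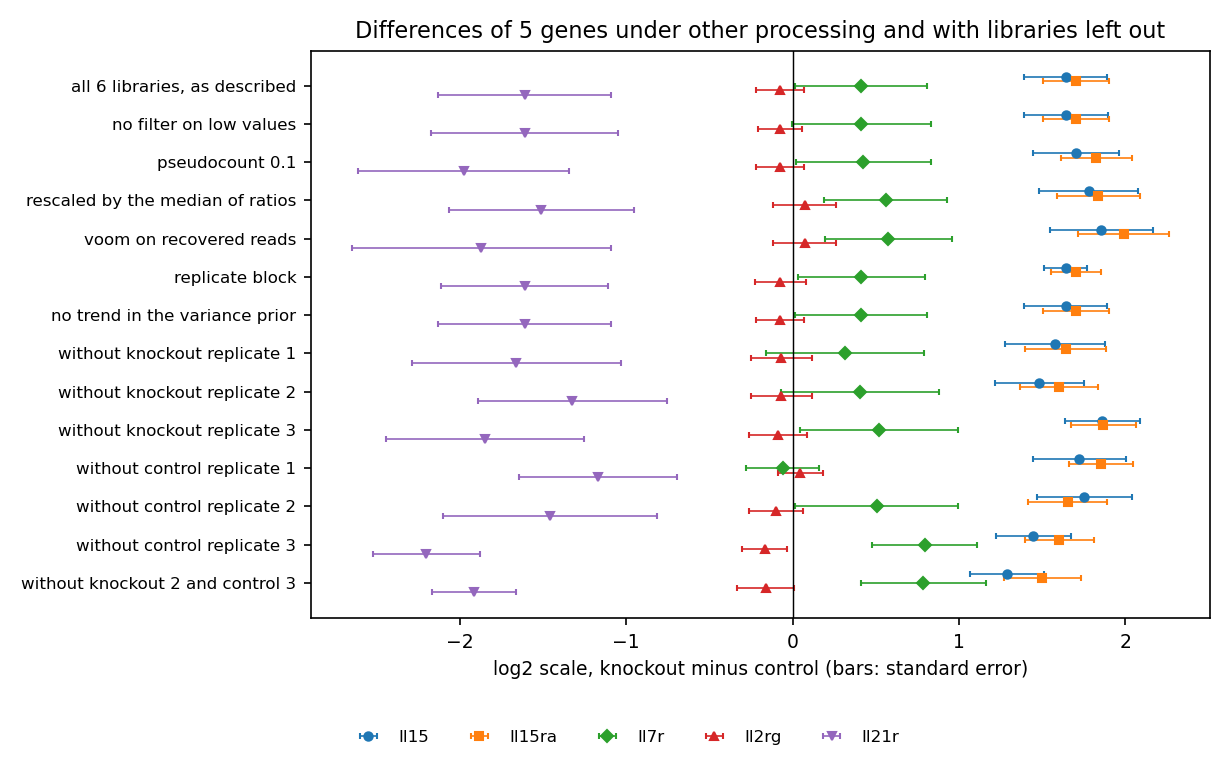
Log2 difference between knockout and control, with its standard error, of the 5 members that could be tested, for all 6 libraries and for each other way of processing or selection of libraries. *Il15* and *Il15ra* stay between 1.29 and 1.99, *Il21r* between -2.20 and -1.17, while *Il2rg* and *Il7r* each have values on both sides of 0.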

How the data were processed

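The authors deposited 1 table with FPKM per gene for each of the 6 libraries, and mean counts per group scaled by the size factors of DESeq2, which are a signal averaged over libraries by the authors. Fold change, p-value and q-value columns of the authors' own comparison were not used. The submitters' processing notes name the build mm9. The aligner, the counting and the annotation are not given in the sources used here. Genes are listed above a minimum mean only. FPKM and group means together gave back whole reads for 100% of values in each library (within 0.1 read), 36170767 to 42217558 per library, and all per-sample columns were used.

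Had the deposited values been counts, a count model would have been used. For FPKM, limma 3.58.1 in R 4.3.3 (trended prior) was applied to log2(FPKM + 1) of the 9030 genes with a mean of at least 1 FPKM in one group, with Benjamini-Hochberg adjustment at 0.05. This scale understates changes of low genes. The p-values measure the spread between these libraries, since nothing says that they are separate mice, and an exact two-sided permutation test of 3 against 3 cannot go below 0.1. The fit was tested on simulated reads.

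Deviations of same-numbered knockout and control libraries from their group means correlated at 0.109, 0.11 and 0.304, all over the threshold of 0.1 for pairing. The main fit was nevertheless unpaired, and a fit paired by replicate number was run only as an alternative. Libraries of different numbers correlated between -0.332 and 0.291, the highest being knockout 2 with control 1, above the first 2 of the same-numbered pairs. The pairing rests on the values alone. Alternatives were no filter, a pseudocount of 0.1, rescaling by the median of ratios, voom on the recovered reads, no trend, the replicate block and each library left out.

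The 6 genes, the pathway lists, the marker lists and the rule for named genes were chosen with earlier results of these data known. Named were the 6 genes, *Timd4*, *Lyz2*, pathway genes past the threshold with up to 12 others, and the 5 genes (for *Il15*) or 2 genes (for others) with the most similar levels. Further pathway genes and markers were named for their role after their values were seen. For 1 gene of the pathway lists, values are not reported here.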

Additional observations from a re-analysis of the deposited data

How the results depend on the processing

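The direction of *Il15*, *Il15ra* and *Il21r* was the same in all 13 alternatives, and *Il15* lay between 1.29 and 1.86. *Il15ra* moved most with voom on the recovered reads (1.99). Counts were less stable. Without a filter on low values 141 genes were higher in place of 232, and with the replicate block 352. The balance of directions moved with the scaling. After rescaling by the median of ratios 342 genes were higher and 320 lower, and with voom 298 and 291, in place of 232 and 428. With 1 library left out, the genes past the threshold numbered 8 to 1333 in place of 660, with 1 to 529 higher and 7 to 804 lower, 0 to 2 of the members higher, and 0 to 8 of the other pathway genes. *Il21r* passed as lower without control library 3. The 8 genes were left without control library 2, where 1773 genes had an unadjusted p under 0.05. Without knockout library 1, 30 passed, without knockout library 2, 63, and without control library 3, 1333. Other pathway genes past the threshold numbered 3 with rescaling by the median of ratios and 3 with voom, in place of 6. The causes were not tested. The paired fit (replicate block) leaves each difference as it is by construction and changes its error, and *Il13ra1* and *Socs3* passed in it. It changed no other call among the members and the pathway genes. With 3 libraries a group, small differences in *Il2rg* and *Il7r* could not be resolved, and *Il7* rests on 15 to 52 reads per library. Control library 3 was also near the knockout level of *Timd4*, and knockout library 2 was far above the other knockout libraries in *Lyz2*.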
